A study of Mus musculus with 6 samples.

Results

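The genes described here encode the MHC class I molecule and its main activator. They are 8 class I heavy chains (H2-K1, H2-D1, H2-Q4, H2-Q6, H2-Q7, H2-T22, H2-T23 and H2-M3), the light chain B2m, and Nlrc5. They were taken from the tables by symbol and make up 10 of the 55377 genes in the count tables. The heavy chains lie in the H2 region of chromosome 17, B2m on chromosome 2 and Nlrc5 on chromosome 8. All of the 10 were found, and all passed the filter on low counts. The cells were chondrocytes, the cells of cartilage, taken from mouse articular cartilage and kept as a primary culture. One group received a control siRNA (3 libraries, siNC) and the other an siRNA against Irf1 (3 libraries, siIRF1), and RNA was taken 36 h after transfection. The labels state neither the strain of the mice, and with it the H2 haplotype, nor their age. Whether a replicate is its own culture or animal is not stated in the labels, and the p-values therefore cover the spread among these libraries, which may be technical.

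A class I molecule is a membrane-anchored heavy chain paired with B2m (beta-2 microglobulin), and it shows peptides from inside the cell to CD8+ T cells. H2-K1 and H2-D1 are the classical heavy chains, which are present on nearly all nucleated cells. Genes of the Q, T and M parts of the H2 region encode non-classical chains, several of which show a narrow set of ligands to T cells or natural killer cells. Class I promoters carry a kappaB element and an interferon-stimulated response element, which interferon regulatory factors such as IRF1 bind, followed by an SXY module. NLRC5 is a transactivator that acts through the SXY module together with RFX, CREB/ATF and NF-Y proteins.

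The upstream sequences of 5 genes are printed because they show the element that IRF1 is known to recognise. H2-K1, H2-D1 and B2m did not pass the test below, and H2-Q4 and H2-M3 did. Each runs 5′ to 3′ over the 180 bases before the RefSeq start site, on the gene's own strand, from the RefSeq table for GRCm38.p6. The count files use GRCm39, so these coordinates are not those of the files. Capitals mark matches to an interferon regulatory factor pattern (AANNGAAA, printed here mostly as its reverse complement), a kappaB pattern (GGGNNTTCC), the CREB core TGACG and CCAAT, which reads ATTGG on the other strand. No match overlaps another in the printed sequences.
H2-K1: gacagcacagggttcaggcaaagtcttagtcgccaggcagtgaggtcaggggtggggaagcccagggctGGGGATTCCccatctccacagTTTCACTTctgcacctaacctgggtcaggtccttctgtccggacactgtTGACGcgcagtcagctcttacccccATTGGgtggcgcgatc
H2-D1: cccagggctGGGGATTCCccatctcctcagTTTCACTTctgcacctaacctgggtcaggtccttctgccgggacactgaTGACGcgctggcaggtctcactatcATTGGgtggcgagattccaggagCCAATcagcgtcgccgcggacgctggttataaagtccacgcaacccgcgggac
H2-Q4: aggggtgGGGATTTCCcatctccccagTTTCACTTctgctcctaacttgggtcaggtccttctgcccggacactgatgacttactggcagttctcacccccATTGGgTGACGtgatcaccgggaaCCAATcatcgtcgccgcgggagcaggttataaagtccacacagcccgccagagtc
H2-M3: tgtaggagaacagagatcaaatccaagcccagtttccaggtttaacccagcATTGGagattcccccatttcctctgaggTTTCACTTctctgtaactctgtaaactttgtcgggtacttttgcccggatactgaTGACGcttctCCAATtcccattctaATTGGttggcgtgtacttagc
B2m: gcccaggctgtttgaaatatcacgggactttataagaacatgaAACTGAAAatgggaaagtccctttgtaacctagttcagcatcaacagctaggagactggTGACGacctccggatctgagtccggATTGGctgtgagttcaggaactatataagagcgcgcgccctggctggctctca
The H2-K1 window is chr17:34000348-34000527 on the minus strand, where the table lists 2 starts for the gene and the first was used. On the plus strand, the windows are chr17:35262914-35263093 for H2-D1, chr17:35379437-35379616 for H2-Q4, chr17:37270054-37270233 for H2-M3 and chr2:122147507-122147686 for B2m.

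The table held a window for 9 of the 10 genes, all but Nlrc5, each covering 250 bases before the start and 50 after it. Both strands were searched, the patterns were chosen with the sequences in view, and a match is a description of letters and not a bound site. The interferon regulatory factor pattern was in 9 of 9 windows, against 23.9% of all 32851 windows. In 7 of the 9 it had the same letters, AAGTGAAA (TTTCACTT as printed), which 1.60% of all windows hold. The exceptions were B2m, with AACTGAAA, and H2-T23, with other letters at its 2 matches. The kappaB pattern was in 5 of 9 (H2-K1, H2-D1, H2-Q4, H2-Q6 and H2-Q7), against 5.82% of all windows. TGACG was in 7 of 9, all but H2-Q6 and H2-T23, against 20.8%, and CCAAT was in 9 of 9, against 37.4%. Only H2-K1, H2-D1, H2-Q4 and H2-Q7 held all 4 patterns, which 45 windows (0.137%) did.

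**Figure D1:**
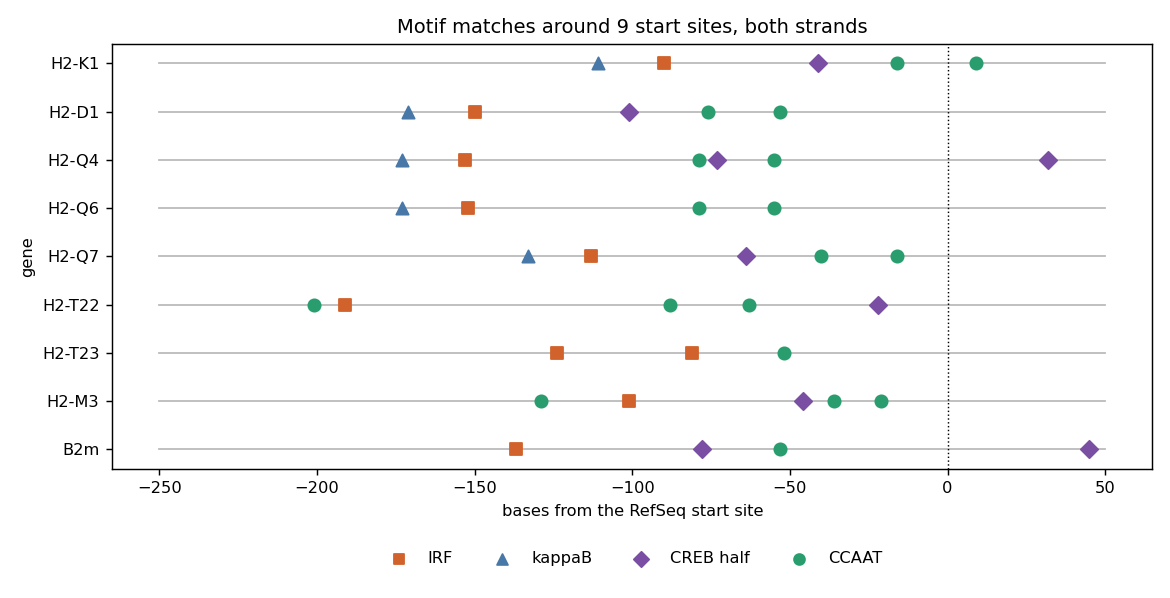
Position of each motif match (symbols) along the windows of 9 genes, in bases from the RefSeq start site (dotted line at 0); each row is 1 gene. The interferon regulatory factor match lies upstream of the TGACG match nearest to it in the 7 genes that have both, and all such matches start between positions −191 and −81.

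The spacing of the elements was also shared. The kappaB match began 20 or 21 bases before the interferon regulatory factor match in each of the 5 genes that had both. TGACG began 24 or 25 bases before an ATTGG in H2-K1, H2-D1, H2-Q7, H2-M3 and B2m, a spacing held by 43 of all windows (0.131%). That spacing was taken from these same windows and the class I genes are near-copies, so its rarity elsewhere is a description and not a test. No count over all windows was made for the kappaB spacing. H2-Q4 lacked it, and its TGACG before the start site lay downstream of its ATTGG.

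Irf1 itself served as a check of the labels. Its level was 11.1, 12.6 and 12.2 CPM (counts scaled to a common library total with edgeR's TMM factors) in the control libraries and 5.64, 5.08 and 6.02 with the siRNA. The groups did not overlap, 46.5% of the control level remained, and the log2 fold change was −1.10 (SE 0.11, adjusted p = 3.0e-06, edgeR's quasi-likelihood test with Benjamini-Hochberg adjustment over the 14683 tested genes). Every adjusted p below comes from that test, and genes with a value under 0.05 are said to have risen or fallen. Total counts ran from 22349142 to 29282494, and every Irf1 siRNA library was shallower than every control library.

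Of the 10 genes, 2 fell (H2-Q4 and H2-M3), none rose and 8 did not pass. Among all tested genes, 12.0% fell and 10.4% rose. With edgeR at an unadjusted p under 0.05 there were 0 rises among the 10, and DESeq2 also gave 0. The median log2 fold change was −0.16 over the 10 and 0.00 over all tested genes (range over the 10, −0.70 to 0.34). All 3 Irf1 siRNA libraries lay below all 3 controls for 2 of the 10, again H2-Q4 and H2-M3, as for 19.5% of all tested genes. With 2 of 10 beside that background, no change of the group as a whole is read from the count. In bulk RNA, fewer cells of a type and less RNA per cell cannot be told apart.

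**Figure D2:**
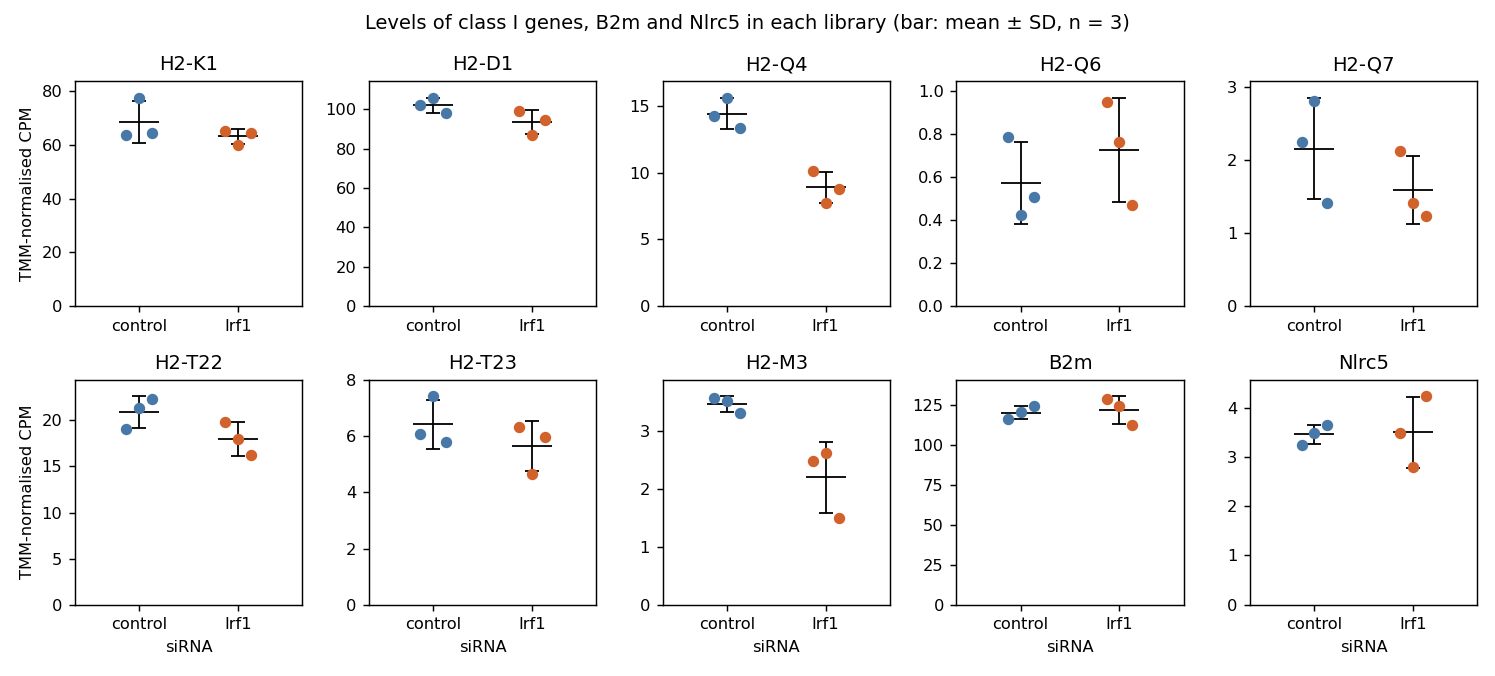
TMM-normalised CPM of each gene (1 panel each, linear axes from 0) in the 3 control and 3 Irf1 siRNA libraries; points are libraries and bars are mean ± SD (n = 3). The groups are apart for H2-Q4 and H2-M3 and overlap in the other 8 panels.

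Neither classical heavy chain passed the test. H2-K1 had 63.7, 77.6 and 64.5 CPM in the control libraries and 65.3, 59.8 and 64.4 with Irf1 siRNA. Its groups overlapped, and control replicate 2 stood above the other 5 libraries. The log2 fold change was −0.12 (SE 0.07, 95% interval −0.28 to 0.04, adjusted p = 0.282), and without control replicate 2 it was −0.02 (adjusted p = 0.871). H2-D1 had 102.2, 105.8 and 98.1 CPM in the control libraries and 99.2, 87.0 and 94.5 with Irf1 siRNA. Here 1 siRNA library lay inside the control range and the other 2 lay below it. Its log2 fold change was −0.13 (SE 0.06, 95% interval −0.26 to 0.01, adjusted p = 0.163).

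H2-Q4 (ENSMUSG00000035929.12) encodes a heavy chain of the Qa group. Its level was 14.3, 15.6 and 13.3 CPM in the control libraries (14.4 ± 1.15, SD, n = 3) and 10.1, 7.74 and 8.80 with Irf1 siRNA (8.88 ± 1.19). The lowest control library was above the highest siRNA library, and 61.5% of the control level remained. The log2 fold change was −0.70 (SE 0.11, 95% interval −0.93 to −0.47, adjusted p = 2.5e-04). The call held in all 12 alternatives run, with log2 fold changes from −0.80 to −0.61. The counts behind it were 400, 440 and 394 against 224, 213 and 206.

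H2-M3 (ENSMUSG00000016206.7) encodes a chain that presents peptides beginning with N-formylmethionine, as bacterial and mitochondrial proteins do. Its level was 3.57, 3.51 and 3.31 CPM in the control libraries (3.46 ± 0.136) and 2.48, 2.62 and 1.49 with Irf1 siRNA (2.20 ± 0.612). The control libraries were close together, while siRNA replicate 3 lay well below its group. The log2 fold change was −0.65 (SE 0.19, 95% interval −1.06 to −0.24, adjusted p = 0.0251), on counts of 100, 99 and 98 against 55, 72 and 35. The call was lost without control replicate 1 (adjusted p = 0.0651), control replicate 2 (0.0686) or siRNA replicate 3, where the log2 fold change was −0.44 (adjusted p = 0.116).

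The other non-classical heavy chains did not pass the test. H2-T22, a heavy chain that some gamma delta T cells recognise, had 19.01, 21.3 and 22.3 CPM in the control libraries and 19.8, 17.9 and 16.2 with Irf1 siRNA. Its groups overlapped through siRNA replicate 1. The log2 fold change was −0.22 (SE 0.09, 95% interval −0.41 to −0.03, adjusted p = 0.0993). Leaving out 1 library moved it from −0.29 (adjusted p = 0.0410, without siRNA replicate 1) to −0.15 (adjusted p = 0.340, without siRNA replicate 3), and only the first of these passed. H2-T23 encodes Qa-1, which binds a leader peptide of class I chains and is read by the NKG2 receptors of natural killer cells. It had 6.06, 7.41 and 5.77 CPM in the control libraries and 6.32, 4.65 and 5.98 with Irf1 siRNA, with a log2 fold change of −0.19 (SE 0.14, adjusted p = 0.374). Control replicate 2 was its highest library and siRNA replicate 2 its lowest, and the log2 fold change was −0.08 without the former and −0.06 without the latter.

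H2-Q6 and H2-Q7, which encode Qa-2 chains, had few counts. H2-Q7 had 2.25, 2.80 and 1.42 CPM in the control libraries and 2.12, 1.42 and 1.24 with Irf1 siRNA. The groups overlapped, with a log2 fold change of −0.44 and a wide 95% interval of −1.01 to 0.12 (adjusted p = 0.257). It was −0.21 without control replicate 2, −0.68 without control replicate 3 and −0.69 without siRNA replicate 1. H2-Q6 had 22, 12 and 15 counts against 21, 21 and 11. Its log2 fold change of 0.34 (SE 0.35, 95% interval −0.40 to 1.09, adjusted p = 0.530) leaves room for a fall as well as a rise, and it was between 0.13 and 0.63 when 1 library was left out. Summed into 1 row, because reads of the pair can be assigned to either, they gave −0.24 (SE 0.23, adjusted p = 0.514).

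B2m, the chain shared by all of these molecules, had 116.1, 120.6 and 124.1 CPM in the control libraries and 129.0, 124.0 and 112.2 with Irf1 siRNA. The siRNA libraries spanned the whole control range. The log2 fold change was 0.02 (SE 0.06, 95% interval −0.11 to 0.15, adjusted p = 0.871). Nlrc5 had 3.25, 3.47 and 3.65 CPM in the control libraries and 3.48, 2.80 and 4.23 with Irf1 siRNA, so the siRNA group held both its lowest and its highest value. The log2 fold change was 0.01 (SE 0.17, 95% interval −0.35 to 0.37, adjusted p = 0.976). The sign of neither gene was stable: B2m turned negative without control replicate 1 or siRNA replicate 1, and Nlrc5 without control replicate 1, without siRNA replicate 3 or with no filter on low counts.

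**Figure D3:**
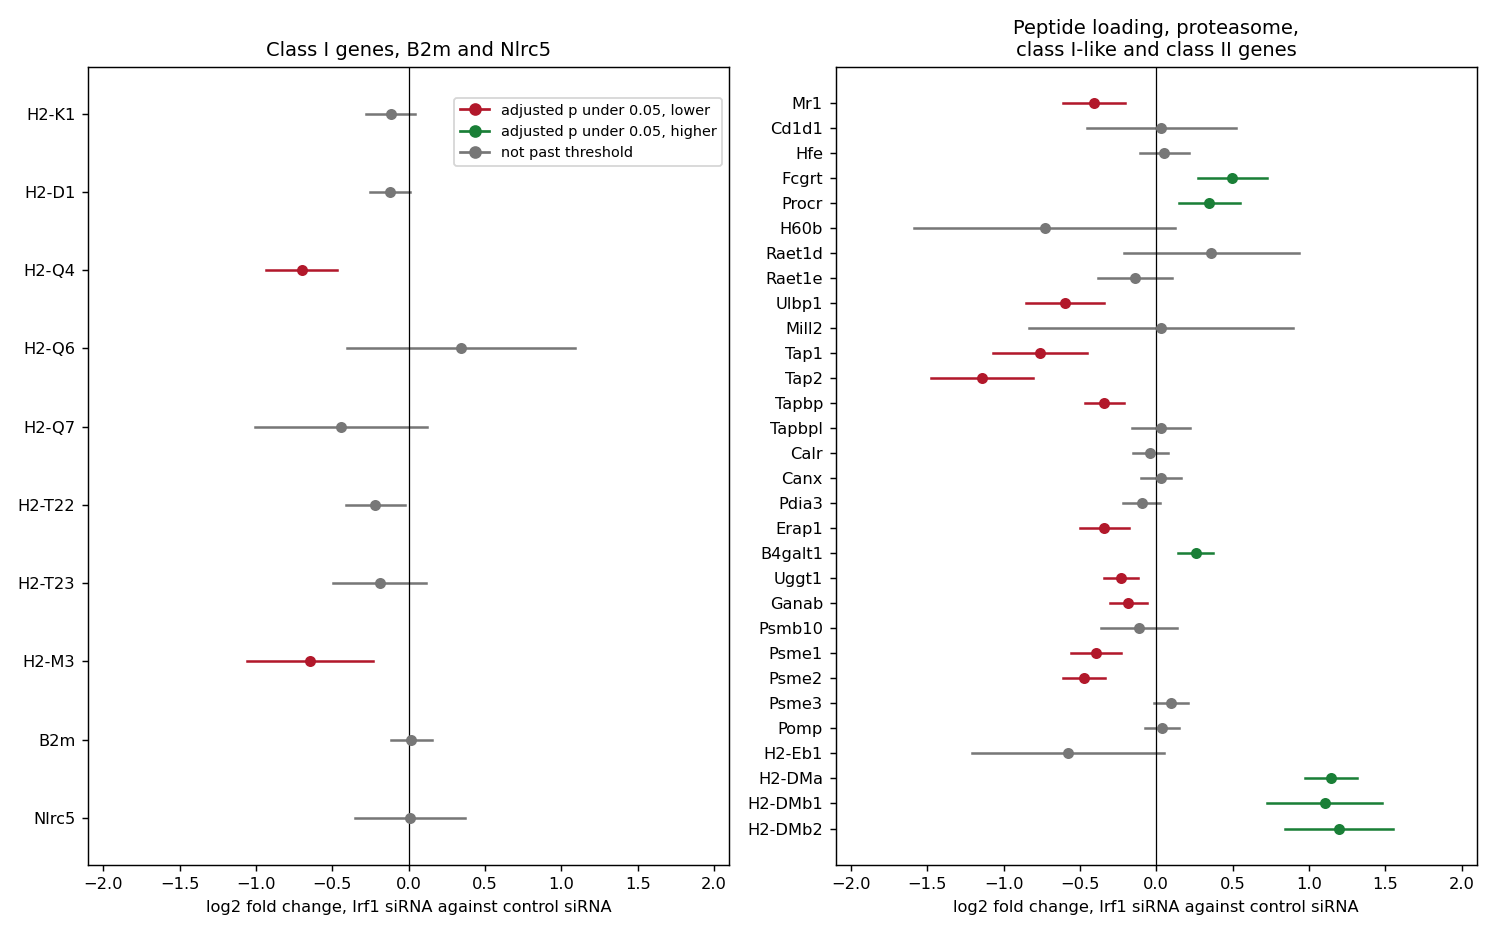
Log2 fold change (points) with 95% interval (bars) for Irf1 siRNA against control siRNA, for the class I genes on the left and for peptide loading, proteasome, class I-like and class II genes on the right; colour gives the call. On the left only H2-Q4 and H2-M3 passed, and on the right Tap2 was the lowest and the 3 H2-DM genes the highest.

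The make-up of the class I pool was then compared between the groups. All 8 heavy chains together gave 211.8, 234.5 and 209.2 CPM in the control libraries and 206.3, 182.0 and 193.1 with Irf1 siRNA. The groups were narrowly apart (209.2 against 206.3), while 19.5% of all tested genes had groups apart in this direction. The sum itself was not tested. H2-Q4 made up 6.74%, 6.65% and 6.36% of the heavy-chain counts in the control libraries and 4.90%, 4.25% and 4.56% with Irf1 siRNA. H2-M3 made up 1.59% ± 0.0934 in controls and 1.14% ± 0.336 with Irf1 siRNA. The part taken by H2-K1 and H2-D1 together was 78.1% ± 0.321 in controls and 80.9% ± 1.30 with Irf1 siRNA (SD, n = 3). The summed level of that pair was 170.6 ± 11.2 CPM in controls and 156.8 ± 9.03 CPM with Irf1 siRNA, and there the groups overlapped. In all, 6 ratios between these genes were tested with an exact two-sided permutation test, whose smallest possible p in 3 against 3 is 0.1. The ratio of H2-Q4 to H2-K1 was 0.224, 0.201 and 0.206 in controls and 0.155, 0.129 and 0.137 with Irf1 siRNA (log2 change −0.59, exact permutation p = 0.1, adjusted over the 6 ratios 0.15). H2-Q4 to H2-D1 (−0.58), H2-Q4 to B2m (−0.72) and H2-M3 to H2-D1 (−0.57) also had groups apart, at the same exact permutation p of 0.1. Each of these 4 ratios has H2-Q4 or H2-M3 above the line, so they restate the falls of those genes, and the design could not bring any of them under 0.05. The ratio of all heavy chains to B2m was 1.82 ± 0.130 in controls and 1.60 ± 0.127 with Irf1 siRNA, with overlapping groups (exact permutation p = 0.2).

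To compare genes with each other, levels were divided by the length of their annotated exons. On that scale of CPM per kilobase, B2m was highest in control cells at 139.8 ± 4.66 (SD, n = 3), followed by H2-D1 at 39.6 ± 1.49 and H2-K1 at 23.3 ± 2.66. H2-T22 at 6.12 ± 0.498 and H2-Q4 at 5.54 ± 0.445 came next and overlapped. H2-M3 at 2.41 ± 0.0944 and H2-T23 at 2.22 ± 0.302 also overlapped. H2-Q7 at 0.505 ± 0.163 and Nlrc5 at 0.407 ± 0.0237 overlapped, and H2-Q6 was lowest at 0.274 ± 0.0904. With Irf1 siRNA the first 5 places kept this order, H2-T23 stood above H2-M3 with overlapping values, and Nlrc5, H2-Q7 and H2-Q6 overlapped in turn. H2-T22 and H2-Q4, which overlapped in controls, were then apart, at 4.74 to 5.80 and 2.98 to 3.90.

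**Figure D4:**
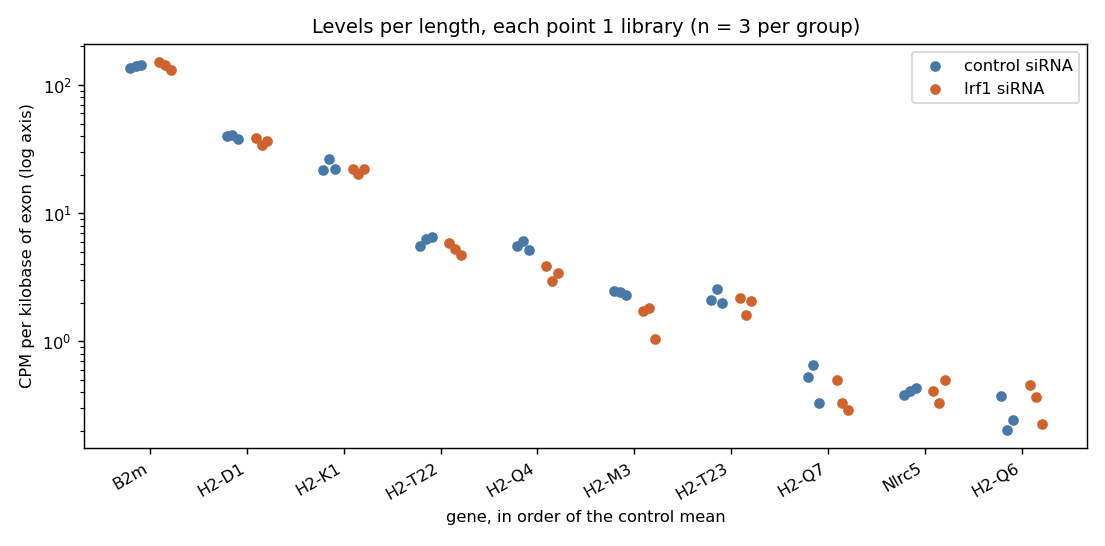
CPM per kilobase of exon (log axis) of each gene in each library, genes in order of the control mean; every point is 1 library (n = 3 per group). B2m, H2-D1 and H2-K1 lie above the rest, and the ranges of H2-T22 and H2-Q4 overlap in controls and are apart with Irf1 siRNA.

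Class I genes are near-copies of each other, and how reads that match several genes were counted is not given in the sources used here. The share of each gene's 50-base words that also occur in the transcripts of another gene was therefore measured in GENCODE M21. It was 34.5% for H2-T22, 32.0% for H2-Q6, 26.4% for H2-Q7 and 21.8% for H2-Q4. It was 13.6% for H2-T23, 12.8% for H2-D1, 9.63% for H2-K1 and 0.576% for H2-M3, and B2m and Nlrc5 shared none. Most of what H2-T22 shares is with H2-T10 (31.2% of its words), which had 18 counts over the 6 libraries. H2-Q7 shared more with H2-Q10 (14.0%, 260 counts) than with H2-Q6 (6.31%). The sum of H2-Q6 and H2-Q7 above leaves H2-Q10 out, so it does not cover all shared reads. The largest partner of H2-Q4 was H2-Q6 (9.68%), with 102 counts over the 6 libraries against 1877 for H2-Q4. H2-Q4 also shared words with 2 genes of higher counts, H2-K1 (3.01%, 10484 counts) and H2-D1 (2.58%, 15561 counts). How many reads of H2-Q4 came from these was not tested. With 100-base words the shares were 12.0% or less for every gene and 2.16% for H2-Q4. Antisense genes overlap the exons of 3 of the 10, and their totals over the 6 libraries were 34 counts for Gm11131 (with H2-Q4), 173 for A930015D03Rik (with H2-T22) and 71 for 9330175E14Rik (with Nlrc5).

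**Figure D5:**
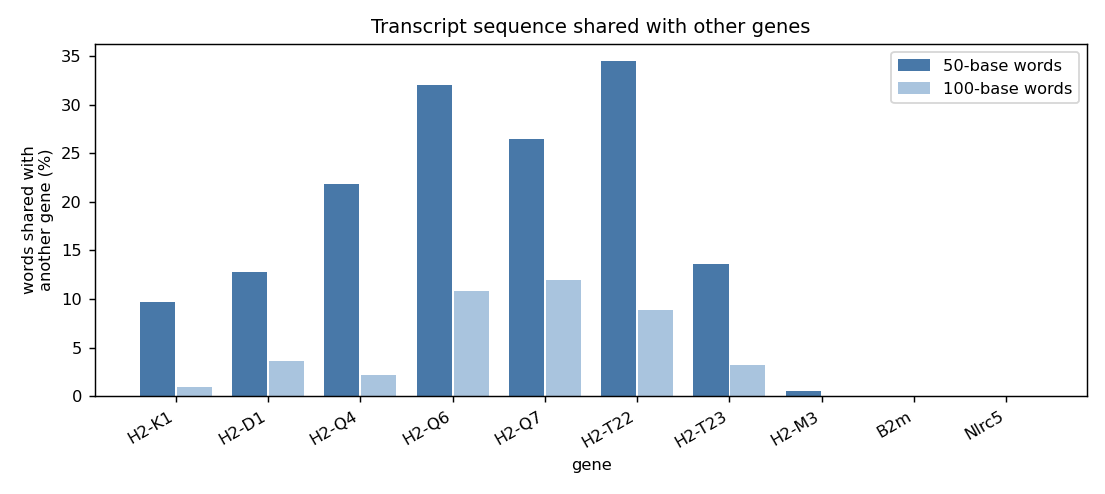
Share of each gene's 50-base and 100-base transcript words (bars, from 0) that also occur in transcripts of another gene. H2-T22, H2-Q6, H2-Q7 and H2-Q4 share the most at 50 bases, and H2-M3, B2m and Nlrc5 share almost none.

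Other class Ib genes of the H2 region had few or no counts: 18 of 28 listed symbols were matched, 11 of these had no count in any library, and 2 were tested. H2-Q2 had means of 0.468 CPM in controls and 0.938 CPM with Irf1 siRNA, and rose (log2 fold change of 1.01 with an SE of 0.33, adjusted p = 0.0384). The call failed in 6 of 12 alternatives, among them DESeq2 (adjusted p = 0.0947). H2-Q10 had means of 1.59 CPM in controls and 1.72 CPM with Irf1 siRNA and did not pass (log2 fold change 0.11, adjusted p = 0.786). Of 10 tested class I-like genes outside the region, 2 fell and 2 rose, beside 12.0% and 10.4% of all tested genes. Mr1, which presents vitamin B metabolites and pairs with B2m, had 11.9, 13.3 and 12.2 CPM in controls and 9.25, 8.93 and 10.04 with Irf1 siRNA (log2 fold change −0.41, adjusted p = 0.00599). Ulbp1, a ligand of the NKG2D receptor that does not pair with B2m, had a log2 fold change of −0.60 (adjusted p = 0.00232). Fcgrt, the heavy chain of the neonatal Fc receptor and a partner of B2m, rose by 0.50 on the log2 scale (adjusted p = 0.00359). Procr, the endothelial protein C receptor, had a log2 fold change of 0.35 (adjusted p = 0.0140). That call failed without control replicate 1 or 2 and without siRNA replicate 2 or 3 (adjusted p = 0.0516 to 0.0772).

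The machinery that loads class I molecules was examined next. Of 11 tested loading and trimming genes 6 fell and 1 rose (median log2 fold change −0.18), beside 12.0% and 10.4% of all tested genes. The 6 include Ganab, whose call was lost in 5 of 12 alternatives. Calr, Canx, Pdia3 and Tapbpl did not pass, with log2 fold changes of −0.04, 0.03, −0.10 and 0.03 (adjusted p = 0.253 to 0.843). Tap1 and Tap2 encode the peptide transporter: Tap1 went from 5.65 to 3.33 CPM (log2 fold change −0.76, adjusted p = 0.00149) and Tap2 from 5.94 to 2.70 (−1.14, adjusted p = 8.5e-05). Tapbp, or tapasin, which bridges the transporter and the heavy chain, had a log2 fold change of −0.34 (adjusted p = 8.2e-04). B4galt1, a galactosyltransferase, rose by 0.26 (adjusted p = 0.00281). Among 5 tested of 7 proteasome genes, 2 fell and 0 rose, beside 12.0% and 10.4% of all tested genes. Those that fell were the activator subunits Psme1 (−0.39, adjusted p = 0.00169) and Psme2 (−0.47, adjusted p = 7.4e-05). Psme3, another activator subunit, did not pass (0.10, adjusted p = 0.205), and its siRNA libraries all lay above the controls. Of the 3 immunoproteasome subunits, Psmb10 did not pass (8.90 CPM in controls and 8.27 with Irf1 siRNA, log2 fold change −0.11, adjusted p = 0.544). The other 2, Psmb8 and Psmb9, were too low to test, with counts of 10, 14 and 14 against 1, 5 and 2, and of 9, 5 and 6 against 0, 1 and 1.

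Of 20 tested genes listed as regulators of class I promoters, 5 fell and 2 rose, beside 12.0% and 10.4% of all tested genes. The 5 include Irf1, the target of the siRNA, so the count is not independent of the design. They also include Nfkb1 and Ezh2, whose calls were lost in 8 and 7 of 12 alternatives. Besides Irf1, Stat3, a factor that cytokine receptors activate, fell (log2 fold change −0.63, adjusted p = 1.2e-06). Rfx5, the DNA-binding RFX subunit of the SXY module, had means of 12.2 CPM in controls and 9.06 CPM with Irf1 siRNA and fell (−0.42, adjusted p = 0.0135). Its call failed without control replicate 2 (0.0875) or siRNA replicate 3 (0.0607). The other RFX subunits did not fall. Rfxap rose by 0.31 (adjusted p = 0.0235), a call lost in 3 of 12 alternatives, and Rfxank did not pass (0.05, adjusted p = 0.776). Atf1, a CREB/ATF family member, rose by 0.26 (adjusted p = 0.00696). Of 7 tested interferon receptor and signalling genes only Jak2, a kinase of the interferon-gamma receptor, passed, beside the same 12.0% lower and 10.4% higher. Jak2 rose by 0.18 (adjusted p = 0.0351), a call that was lost in 5 of 12 alternatives. Of 12 tested genes for class I turnover and surface removal 3 fell and 1 rose, beside the same 12.0% and 10.4%. Cmtm6, known for keeping PD-L1 at the surface, had the greatest change of these (−1.77, adjusted p = 2.4e-09). Marchf8, a ubiquitin ligase, and Sel1l, part of the machinery for degrading endoplasmic reticulum proteins, fell by 0.29 and 0.25, and Susd6 rose by 0.27 (adjusted p = 0.00149, 0.00437 and 0.00209).

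In the class II pathway the H2-DM genes rose. Of 4 tested class II genes 3 rose, beside 10.4% of all tested genes. All of them were chains of H2-DM, which edits the peptides that class II molecules carry and lies in the same H2 region. H2-Eb1, the other tested class II gene, did not pass (log2 fold change −0.58, adjusted p = 0.183), and H2-Aa and H2-Ab1 were too low to test. H2-DMa had 11.6, 11.8 and 11.01 CPM in controls and 24.5, 24.9 and 26.8 with Irf1 siRNA (log2 fold change 1.14, SE 0.08, adjusted p = 7.7e-08). Its groups did not overlap. H2-DMb1 (log2 fold change 1.10, adjusted p = 4.2e-04) and H2-DMb2 (1.20, adjusted p = 9.3e-05) are near-identical genes that can share reads. All 3 calls held in 12 of 12 alternatives. Ciita, the class II transactivator, had at most 2 counts in a library.

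Markers of cells that carry much class I and class II were low. Of 14 macrophage and dendritic cell markers 3 could be tested, and the sum over the list ran from 11.2 to 14.7 CPM in controls and from 13.3 to 14.0 with Irf1 siRNA. Adgre1, C1qb, C1qc and Itgam had 0 counts in all 6 libraries, Ptprc had 0.0854 to 0.405 CPM, and Cd68 rose (log2 fold change 0.40, adjusted p = 0.0316). The other two tested markers did not pass: Lyz2 had means of 1.57 and 0.975 CPM with groups apart (log2 fold change −0.69, adjusted p = 0.0566), and Mrc1 had a log2 fold change of −0.07 (adjusted p = 0.837). None of 10 T, B and natural killer cell markers could be tested, 7 had no count, and the sum was 0.182 to 0.571 CPM. Endothelial markers summed to 1.82 to 2.30 CPM in controls and 2.25 to 2.66 with Irf1 siRNA, and neither of the 2 tested passed. Fibroblast and synovial markers summed to 126.4 to 145.6 and 144.2 to 160.1 CPM, and 1 of 4 tested, Prg4, rose (log2 fold change 0.46, adjusted p = 0.00112). Chondrocyte markers summed to 93886 to 123207 and 93256 to 122844 CPM, and 1 of 12, Hapln1, fell (−1.04, adjusted p = 1.6e-08). Among all tested genes 12.0% fell and 10.4% rose, and no change of a cell type is read from these marker counts. The part of these marker values in the class I and H2-DM values was not tested.

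Genes whose levels over the 6 libraries were most like those of H2-K1 and B2m were found by the root mean square difference of log2 CPM centred on each gene's mean, among 10150 genes. For H2-K1 they were Exoc7 (0.0284), Zkscan5 (0.0299) and Smpd1 (0.0309), and for B2m Zfp961 (0.0219), Ssu72 (0.0230) and Snhg6 (0.0268). Finally, 4 words of 7 bases that earlier work on these same libraries tied to falling genes (the word ACTGATC, the word CTGATCA, the word GCTATCT and the word CTATCTA) were looked for in the 3′ untranslated regions. They were in 0 of the 10 genes and in 25.3% of 12837 tested genes. The part of these words in the values of the 10 genes was not tested. Over whole transcripts, 3 of the 10 held a word (H2-K1, H2-Q7 and Nlrc5), as did 46.5% of 14653 tested genes.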

How the data were processed

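Polyadenylated RNA was sequenced from 6 libraries with a stranded kit, per the labels' protocols. The authors deposited raw counts per gene, 1 table a library. Reads were handled with Trimmomatic 0.39, FastQC and STAR against build GRCm39 (mm39); these names come from the submitters' processing notes. Counter, annotation release and strand setting: not given in the sources used here, so near-identical or antisense genes may share reads. Counts were fitted in R 4.3.3 with edgeR 4.0.16 (filterByExpr, TMM, robust quasi-likelihood F test, two-sided, Benjamini-Hochberg over 14683 genes). Standard errors are the absolute log2 fold change over the square root of F. DESeq2 1.42.0 served as an alternative, and the fit was tested on simulated data. Named genes are Irf1, the 10 members, up to 4 passing genes of each list by adjusted p (all where 5 or fewer passed), and 3 like genes each for H2-K1 and B2m. Other named genes (H2-Q10, Rfxap, Rfxank, Nfkb1, Ezh2, Psmb8, Psmb9, Psmb10, Psme3, Ganab, Calr, Canx, Pdia3, Tapbpl, H2-Eb1, H2-Aa, H2-Ab1, Ciita, Adgre1, C1qb, C1qc, Itgam, Ptprc, Lyz2 and Mrc1, and partner or antisense genes) were chosen after their values were seen. The members and lists were chosen with earlier results of these data known. Lengths and transcript words come from GENCODE M21 and promoters from RefSeq, both GRCm38.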

Additional observations from a re-analysis of the deposited data

How the results depend on the processing

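Alternatives were DESeq2's size factors, upper-quartile scaling, no low-count filter, the replicate number as a block, DESeq2, H2-Q6 and H2-Q7 summed, and leaving out each library; those for the other pathway lists were added after seeing the data. H2-Q4 fell in all 12. Leaving out 1 library gave 1 to 3 members lower and 0 higher. Among all tested genes it gave 1276 to 1716 lower and 959 to 1398 higher. Among the 71 tested genes of the other lists it gave 14 to 18 lower and 7 to 11 higher. With all libraries these lists had 18 lower and 11 higher. The fewest higher came without siRNA replicate 3 (959) and without control replicate 2 (980; 7 in the lists). Without 1 library B2m ran from −0.025 to 0.070, turning negative without control replicate 1 (−0.0080) or siRNA replicate 1 (−0.025). Nlrc5 ran from −0.15 to 0.16, negative without control replicate 1 (−0.035) or siRNA replicate 3 (−0.15), and was −0.0059 with no filter. The cause was not tested. With the replicate block, 2 members, 1984 genes and 18 listed genes were lower, and 0, 1744 and 12 higher. Whether same-numbered libraries are pairs is not stated in the labels. Deviations of same-numbered libraries from their group means correlated at 0.413, −0.156 and 0.0783 over 10458 genes. With 3 libraries a group such deviations depend on each other, so these correlations cannot decide whether the libraries are paired. Not every library correlated best with its own number. Control replicate 3 correlated at 0.494 with siRNA replicate 2 and at −0.518 with siRNA replicate 1. The source of these correlations was not tested. Depth limits H2-Q6 and H2-Q7 most among the members: they had at most 79 counts a library, and their standard errors, 0.35 and 0.26, were the largest of the 10.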
